A study of Mus musculus with 2 samples.

Results

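The genes described here code for the proteins that let calcium into cells, release it from internal stores and pump it out again. They were chosen by name: every protein-coding gene whose symbol starts with Cacn (26 genes, the subunits of voltage-gated calcium channels and their relatives), and 17 genes for ryanodine receptors, IP3 receptors, STIM sensors, ORAI channels and calcium pumps. That gave 43 of the 21474 protein-coding genes measured. The series holds 1 group of 2 RNA-seq libraries, replicates 1 and 2, from the forebrain of mouse embryos of strain B6NCrl (a C57BL/6 substrain) at embryonic day 14.5. The labels name no treatment, and there is no second tissue or stage. The labels call each sample a single forebrain, collected on a different day, and give both the same donor identifier. The input per library was 10 ng, of RNA above 200 nt. With 1 group of 2 there is no test between groups and no p-value. The comparisons are those between genes within each library and between the 2 embryos, and the spread given is between 2 samples.

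Voltage-gated calcium channels open when a membrane depolarizes. An alpha-1 subunit forms the pore, a cytoplasmic beta subunit and an extracellular alpha-2-delta subunit carry it to the membrane and tune it, and most gamma genes code for relatives that escort AMPA-type glutamate receptors. Inside the cell, ryanodine and IP3 receptors release calcium from the endoplasmic reticulum, STIM proteins sense its emptying and open ORAI channels in the plasma membrane, SERCA pumps (Atp2a genes) refill it, and PMCA pumps (Atp2b genes) push calcium out of the cell. In the embryonic forebrain, calcium signals take part in the division of progenitors, the migration of neurons and the growth of axons.

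The depth was 35310017 expected counts in replicate 1 and 29250404 in replicate 2, of which the 43 genes held 0.0931% and 0.117%. Levels are in TPM, which are divided by transcript length and scaled to the same sum in each library, so that genes can be compared. A count of 0 allows up to 3 counts, or 0.131 and 0.170 TPM for a transcript of 1 kb. The forebrain markers Lhx2 (84.47 and 72.67 TPM), Emx1 (57.08 and 52.2 TPM) and Dlx2 (37.26 and 43.61 TPM) were detected in both libraries. The neuron list (4 of 4 genes detected) summed to 2450 and 2910 TPM and the radial glia list (4 of 4) to 1978 and 1953 TPM. The labels call the sex mixed, whereas 4 Y-linked genes had between 932 and 1717 counts in each library and Xist had 2.52 and 0. The tissue was a mixture of cells, and fewer cells of a type cannot be told apart from less RNA per cell.

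Of the 43 genes, 33 stood at 1 TPM or more in both libraries, against 59.6% of all protein-coding genes. Ryr1 reached 1 TPM in replicate 2 only, and 9 genes stayed under it in both. At 10 TPM or more in both libraries there were 11 genes, against 38.4% of protein-coding genes. The median of the mean TPM was 3.85 over the 43 genes and 4.27 over all protein-coding genes. The highest 4 genes were a beta subunit (Cacnb3), the SERCA2 pump (Atp2a2), an AMPA receptor escort (Cacng4) and a plasma membrane pump (Atp2b1). Each of these stood above 20 TPM in both libraries.

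**Figure D1:**
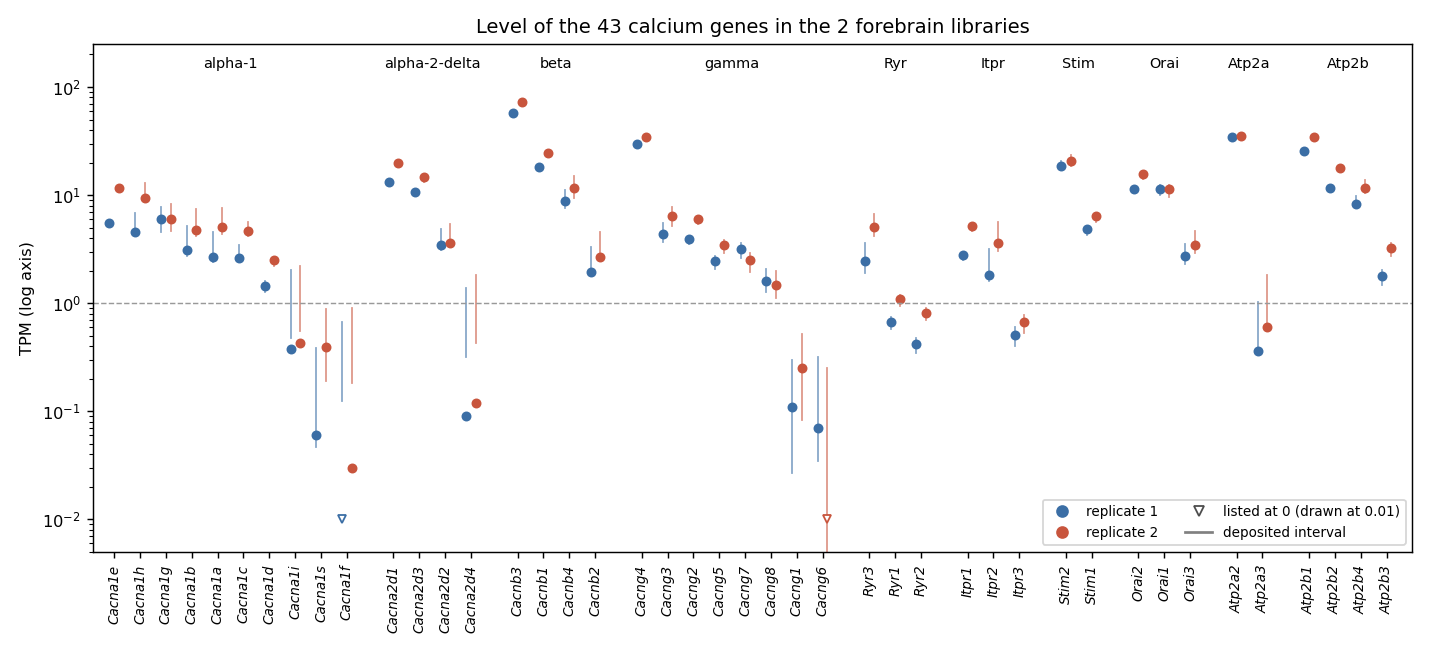
TPM on a log axis of each of the 43 genes, ordered within its family by mean, in replicate 1 (blue) and replicate 2 (red), with the deposited interval of each value as a line and the 1 TPM level dashed. Cacnb3 is highest at 57.91 and 73.25 TPM, and 9 genes lie under the dashed line in both libraries. Some intervals do not contain the point because the authors centred them on another estimate.

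The coding ends of the Atp2a2 isoforms are shown here because the 2 pumps that the gene makes differ only there. The gene (ENSMUSG00000029467.11, chr5:122453513-122502225, minus strand, GRCm38) had 2 coding transcripts with reads. In GENCODE release M21 they share 2983 coding bases, after which Atp2a2-201 goes on for 152 bases of its own (chr5:122457151-122457302) and Atp2a2-202 for 14 (chr5:122454291-122454304). In the lines below the last 30 shared bases are in lower case, and each transcript's own coding bases, stop codon included, are in capitals.
Atp2a2-201: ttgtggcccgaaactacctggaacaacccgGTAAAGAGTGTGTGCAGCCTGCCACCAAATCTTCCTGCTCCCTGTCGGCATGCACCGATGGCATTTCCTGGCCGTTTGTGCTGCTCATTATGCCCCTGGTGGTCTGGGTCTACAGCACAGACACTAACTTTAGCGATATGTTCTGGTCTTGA
Atp2a2-202: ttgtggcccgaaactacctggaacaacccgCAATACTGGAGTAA
The longer frame, of 1044 codons, is that of SERCA2b, the form found in most tissues, and the shorter, of 998 codons, that of SERCA2a, best known from heart and slow skeletal muscle. Atp2a2-201 stood at 24.54 TPM in replicate 1 and 24.71 TPM in replicate 2, and Atp2a2-202 at 9.85 and 10.16 TPM. The shares of the gene's TPM were 71.1% ± 0.354 and 28.9% ± 0.354 (SD, n = 2), so the transcript with the SERCA2b end was the higher in both libraries. These shares are deposited estimates over whole transcript models of the earlier release M4, which are 4491 and 4314 nt long. They were not measured on the ends shown.

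Among the genes of the pore, the alpha-1 family, no single gene dominated. Cacna1e, the R-type channel (ENSMUSG00000004110.10, chr1:154390731-154884501, minus strand, GRCm38), was highest by mean at 5.54 TPM in replicate 1 and 11.69 TPM in replicate 2. Cacna1h, a T-type channel that opens at low voltage (ENSMUSG00000024112.12, chr17:25374285-25433783, minus strand), followed at 4.54 and 9.43 TPM. Cacna1g, another T-type gene, stood at 6.0 and 6.02 TPM, the highest value of the family in the first library. Its interval there, 4.54 to 7.84, overlapped that of Cacna1e, 5.12 to 5.84. The protein-coding transcripts of Cacna1g stood at 1.92 and 2.59 TPM. By gene TPM the channels of presynaptic terminals were lower: Cacna1b (N-type) had 3.11 and 4.72 TPM and Cacna1a (P/Q-type) 2.66 and 5.03 TPM. The L-type genes of neurons, which couple activity to transcription in mature cells, came next, Cacna1c at 2.64 and 4.63 TPM and Cacna1d at 1.45 and 2.51 TPM. This order did not hold in protein-coding transcripts only. There Cacna1b, at 3.11 and 4.71 TPM, stood above Cacna1g. Cacna1a, at 0.610 and 0.920 TPM, stood below Cacna1c, at 1.66 and 2.58 TPM, and Cacna1d, at 1.45 and 2.51 TPM.

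Of the 45 pairs of alpha-1 genes, 30 had their deposited TPM intervals apart in both libraries, but most neighbours in the order were not resolved. Most of the 30 set a higher gene against Cacna1i, Cacna1s or Cacna1f, which were under 1 TPM in both libraries. Cacna1c exceeded Cacna1d by 0.87 ± 0.01 on the log2 scale (SD, n = 2) with the intervals apart in both libraries, the only one of the 4 alpha-1 pairs given singly for which this held. Cacna1e against Cacna1b, at a log2 ratio of 1.07 ± 0.34, Cacna1a against Cacna1b, at -0.07 ± 0.22, and Cacna1g against Cacna1h, at -0.12 ± 0.74, had intervals that overlapped in at least 1 library. The sign changed between the libraries for both of the latter pairs, from -0.23 to 0.09 for Cacna1a and Cacna1b and from 0.40 to -0.65 for Cacna1g and Cacna1h. With protein-coding transcripts only, the excess of Cacna1c over Cacna1d was 0.12. Grouped by current, the P/Q-, N- and R-type genes held 45.3% ± 3.46 of the family's TPM, the T-type genes 38.4% ± 4.25 and the L-type genes 16.3% ± 0.787.

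The remaining alpha-1 genes were under 1 TPM. Cacna1i, the third T-type gene, stood at 0.38 and 0.43 TPM. Cacna1s, the skeletal muscle channel, had 3 and 11 counts (0.06 and 0.39 TPM), and Cacna1f, the channel of photoreceptors, had 0 and 2 counts, which is under the floor of 3. Markers of the tissues these 2 channels are known from stand beside them. None of 6 skeletal muscle markers reached 1 TPM in both libraries, with a sum of 1.09 and 1.98 TPM, most of it from Actn2 (0.72 and 1.3 TPM), and Ckm at 0 in both. None of 4 retina markers did, with a sum of 0.200 and 0.240 TPM.

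The beta family held more RNA than any other, at a summed 99.4 ± 17.9 TPM, which was 26.5% ± 0.286 of the TPM of all 43 genes. Cacnb3, the beta subunit of many neuronal channels (ENSMUSG00000003352.9, chr15:98630840-98644529, plus strand), gave 66.1% ± 0.971 of it, at 57.91 and 73.25 TPM. Cacnb1 followed at 18.13 and 24.61 TPM, lower than Cacnb3 by 1.62 ± 0.07 on the log2 scale with the intervals apart in both libraries. Cacnb4, the subunit mutated in the lethargic mouse, stood at 8.8 and 11.51 TPM, and Cacnb2, known for its part in heart channels, at 1.93 and 2.69 TPM. All 6 pairs within the family had their intervals apart in both libraries, so the order Cacnb3, Cacnb1, Cacnb4, Cacnb2 was the same in both embryos. The beta genes summed to more than the alpha-1 genes, which stood at 35.6 ± 13.1 TPM, in each library (86.8 against 26.4 TPM in replicate 1 and 112 against 44.9 TPM in replicate 2).

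**Figure D2:**
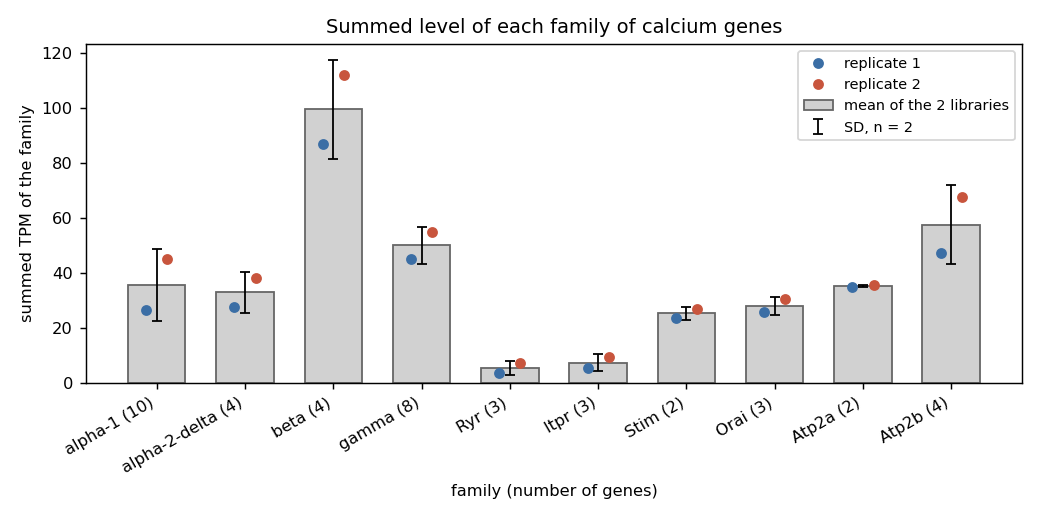
Summed TPM of each family in replicate 1 (blue), in replicate 2 (red) and as their mean (bar) with its SD (n = 2), and the number of genes of each family in brackets. The 4 beta genes sum to 99.4 TPM, the 3 ryanodine receptor genes to 5.29 TPM, and the Atp2a genes sum to 34.8 and 35.5 TPM in the 2 libraries.

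The alpha-2-delta subunits, among them the targets of gabapentin, were led by Cacna2d1 at 13.18 and 19.87 TPM. Cacna2d3 stood at 10.74 and 14.55 TPM and Cacna2d2 at 3.43 and 3.63 TPM. Cacna2d1 exceeded Cacna2d2 by 2.20 ± 0.36 on the log2 scale, with the intervals apart in both libraries. Cacna2d4, known from photoreceptors, had 9 counts in each library (0.09 and 0.12 TPM). All 6 pairs of this family were apart in both libraries.

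Of the 8 gamma genes, Cacng4 alone held 64.3% ± 1.34 of the family's TPM. This escort of AMPA receptors (ENSMUSG00000020723.3, chr11:107732357-107794557, minus strand) stood at 29.44 and 34.73 TPM, above Cacng2 (stargazin) by 2.72 ± 0.26 on the log2 scale with the intervals apart in both libraries. Cacng2 stood at 3.93 and 6.01 TPM and Cacng3 at 4.33 and 6.36 TPM, a pair of neighbours whose intervals overlapped. Cacng5 followed at 2.44 and 3.45 TPM, Cacng7 at 3.17 and 2.5 TPM and Cacng8, abundant in the adult hippocampus, at 1.6 and 1.48 TPM. The intervals of Cacng7 and Cacng8 were not apart in both libraries, at a log2 ratio of 0.87 ± 0.16. Cacng1, the gamma subunit of the skeletal muscle channel, had 3 and 5 counts (0.11 and 0.25 TPM), and its relative Cacng6 had 3 and 0.

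The release channels of the endoplasmic reticulum were the lowest families. The 3 ryanodine receptor genes summed to 5.29 ± 2.43 TPM. Ryr3 led at 2.48 and 5.11 TPM, before Ryr1, the receptor of skeletal muscle, at 0.67 and 1.09 TPM and Ryr2, the receptor of heart and of much of the adult brain, at 0.42 and 0.81 TPM. In protein-coding transcripts only, Ryr3 stood at 0.680 and 1.41 TPM. That was close to Ryr1 in replicate 1, and the TPM of Ryr1 lay wholly in such transcripts. Ryr3 exceeded Ryr2 by 2.61 ± 0.07 on the log2 scale, and Ryr2 lay below Ryr1 at -0.55 ± 0.17, both with the intervals apart in both libraries. Beside them, none of 5 heart muscle markers reached 1 TPM in both libraries (sums of 2.33 and 2.22 TPM). The low TPM of these long transcripts rest on many reads: Ryr1 had 234.26 and 292 expected counts and Ryr2 159 and 240.

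IP3 receptor genes summed to 7.27 ± 3.01 TPM. Itpr1, the main form of neurons, stood at 2.79 and 5.15 TPM, Itpr2 at 1.84 and 3.58 TPM and Itpr3 at 0.51 and 0.67 TPM. Itpr1 and Itpr2 had overlapping intervals, at a log2 ratio of 0.56 ± 0.05, while both lay apart from Itpr3.

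The genes of store-operated entry were higher than the release channels, at a summed 25.2 ± 2.42 TPM for Stim and 27.9 ± 3.39 TPM for Orai. In protein-coding transcripts only, the sums were 6.26 and 8.22 TPM for Stim and 25.1 and 29.3 TPM for Orai. The Itpr genes then summed to 3.98 and 6.82 TPM, so the excess of Stim was small. The sensor Stim2 (ENSMUSG00000039156.15, chr5:53998499-54121057, plus strand) stood at 18.61 and 20.51 TPM, above Stim1 at 4.86 and 6.38 TPM, by 1.81 ± 0.18 on the log2 scale with the intervals apart in both libraries. With protein-coding transcripts only the direction turned, to -1.79, since 91.7% ± 1.03 of the Stim2 TPM lay in transcripts of unknown type. The pore genes Orai1, at 11.43 and 11.29 TPM, and Orai2, at 11.37 and 15.6 TPM, were alike in replicate 1, and Orai2 was the higher in replicate 2. Their log2 ratio was 0.23 ± 0.34. Orai3 was lower, at 2.72 and 3.42 TPM, with its intervals apart from those of both relatives.

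Among the pumps, Atp2a2 stood at 34.39 and 34.87 TPM, a difference of 0.02 on the log2 scale between the embryos. Atp2a3, the SERCA3 pump of blood cells and epithelia, had 37 and 46 counts (0.36 and 0.6 TPM), which left a log2 ratio of 6.22 ± 0.51 between the 2 genes. Atp2b1, the widely expressed plasma membrane pump (ENSMUSG00000019943.9, chr10:98914406-99026143, plus strand), stood at 25.56 and 34.81 TPM. Atp2b2, best known from hair cells and cerebellum, followed at 11.6 and 17.79 TPM, Atp2b4 at 8.21 and 11.74 TPM and Atp2b3 at 1.78 and 3.24 TPM. Atp2b1 exceeded Atp2b2 by 1.05 ± 0.12 and Atp2b4 by 1.60 ± 0.05 on the log2 scale, and all 6 pairs of the family were apart in both libraries. Together the Atp2b genes summed to 57.4 ± 14.4 TPM and the Atp2a genes to 35.1 ± 0.509 TPM.

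Over all 10 families there were 102 pairs of genes, and for 79 the intervals were apart in both libraries with the same gene higher. Many of the 79 set a higher gene against one under 1 TPM in both libraries, such as Cacna1f, Cacna2d4, Cacng1 or Cacng6. Of the 33 pairs that were neighbours in their family's order, 19 had their intervals apart in this way, and 14 such neighbours were not resolved. Only 1 of the 9 neighbouring alpha-1 pairs (Cacna1c and Cacna1d) was. Not all unresolved pairs had like levels: Cacna1d exceeded Cacna1i by 2.24 ± 0.43 on the log2 scale. In replicate 1 the interval of Cacna1i, 0.480 to 2.03, lay above its TPM of 0.38 and spanned that of Cacna1d, 1.26 to 1.59. Cacna1i with Cacna1s, and Cacna1s with Cacna1f, were pairs of genes under 1 TPM.

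The gene levels do not all stand for protein-coding RNA. For 21 of the 33 genes with a mean of 1 TPM or more, at least 90% of the TPM lay in protein-coding transcripts in both libraries. For 6 it was under 50% in both, against 6.40% of all protein-coding genes with a mean of 1 TPM or more. Transcripts of unknown type count as not coding in both figures, and without Ryr3 and Stim2, which have such transcripts, there were 4. In Cacna1a 57.7% ± 2.68 of the TPM lay in transcripts with a retained intron, and in Cacnb2 75.6% ± 13.3. In Cacna1g 62.5% ± 7.79 lay in processed transcripts without a coding frame, and in Itpr2 32.4% ± 6.17 lay in protein-coding ones. For Ryr3 36.1% ± 7.06 lay in retained-intron transcripts and 36.4% ± 7.39 in a transcript whose ID release M21 does not hold. For Stim2 the share in such unmatched transcripts was 91.7% ± 1.03, so their type was not known here. By counts the protein-coding share was higher in Cacna1a, at 68.7% ± 4.69, in Itpr2, at 76.3% ± 4.68, and in Ryr3, at 77.9% ± 1.10. Protein-coding transcripts of Cacna1g held 37.5% ± 7.79 of the TPM but 89.1% ± 3.03 of the counts, whereas those of Cacnb2 held 16.2% ± 15.3 of the TPM and 12.0% ± 3.28 of the counts. The unmatched transcripts of Stim2 held 86.5% ± 2.31 of its counts.

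**Figure D3:**
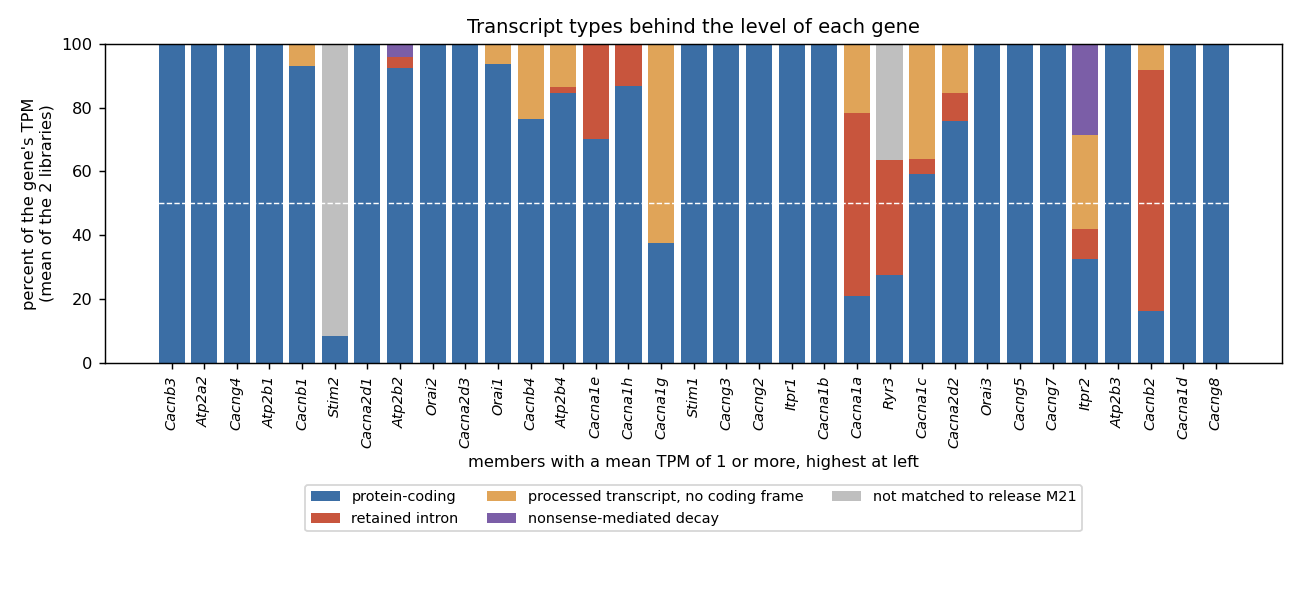
Percent of each gene's TPM by transcript type (GENCODE release M21), as the mean of the 2 libraries, for the 33 genes with a mean of 1 TPM or more, highest at left. Cacna1a, Cacna1g, Cacnb2, Itpr2, Ryr3 and Stim2 are the 6 bars whose blue, protein-coding part stays under the dashed line at 50%.

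With protein-coding transcripts alone, some of these ratios moved. The log2 ratio was -2.35 for Cacna1a over Cacna1b, -1.35 for Cacna1g over Cacna1h and 0.74 for Ryr3 over Ryr2. Itpr1 exceeded Itpr2 by 2.20. The coding transcript Cacnb3-202 held 91.0% ± 3.28 of the TPM of Cacnb3. Cacna1e-203 held 70.2% ± 11.3 of the TPM of Cacna1e, with the rest in retained-intron transcripts. The Ryr2 models, both 16813 nt long, were each assigned 50.0% and could not be told apart.

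Strand was not given for the counting, so reads of overlapping genes cannot be told apart. Exons of 15 of the 43 genes overlap exons of a gene on the opposite strand. Cacnb4 shares 1433 exon bases with A430018G15Rik (0.89 and 1.36 TPM), Ryr3 shares 916 with Aven (2.17 and 2.51 TPM), and Ryr1 shares 864 with Gm26604 (1.94 and 1.78 TPM), which was higher than Ryr1 itself. Cacna1d shares 589 bases with Chdh (0.03 and 0.21 TPM) and Cacna1h 158 with Tpsg1 (0.85 and 0.33 TPM). Cacnb2 shares 618 with Gm10849 (0.17 and 1.08 TPM), and Cacna1s shares 1309 with Gm37759 (0.01 and 0.0 TPM). The levels of Ryr1, Ryr3 and Cacnb2 are uncertain to that extent.

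The libraries differed in one direction for most of these genes. Each embryo gave 1 library, so embryo and library preparation cannot be told apart. Of the 33 genes with a mean of 1 TPM or more, 30 were higher in replicate 2 than in replicate 1, and 3 were lower (Cacng7, Cacng8 and Orai1). Among all protein-coding genes of that level 74.0% were higher in replicate 2. The median log2 ratio was 0.48 for the 33 genes and 0.16 for all. The deposited intervals were apart and higher in replicate 2 for 19 of the 33, against 35.0% of all, and lower for 0 of the 33, against 6.73%. The family medians ran from 0.02 for Atp2a2 to 1.04 for Ryr3, each the only gene of its family at that level. Between them lay 0.27 for the 2 Stim genes, 0.57 for the 4 Atp2b genes, 0.81 for the 7 alpha-1 genes and 0.92 for the 2 Itpr genes.

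A difference was called where the mean was 5 TPM or more, the ratio was at least 2-fold and the intervals were apart. It held for Cacna1e, 2.11-fold higher in replicate 2, and Cacna1h, 2.08-fold higher, of 18 genes with a mean of 5 TPM or more. Of the 10381 protein-coding genes of that level, 0.231% were called higher and 0.0771% lower, and none of the 43 was called lower. The call was lost for both genes when counts were scaled with edgeR's TMM, at 1.59-fold and 1.47-fold, and with protein-coding transcripts only, at 1.68-fold and 1.91-fold. For Cacna1h the TPM of replicate 1, 4.54, lay just outside its own interval of 4.63 to 6.82.

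The difference between the libraries moved with transcript length. Over all protein-coding genes the median log2 ratio was -0.13 in the shortest and 0.33 in the longest of 10 equal groups by transcript length. The 33 genes had a median transcript length of 4115 nt against 2553 nt for all, and 14 of them lay in the longest group. The length used was the deposited value per gene in replicate 1, which can lie below that of the coding model. For Cacna1a it was 2612 nt, against 7926 nt for Cacna1a-201, which set the gene in a shorter group. Set against the median of its own length group, the ratio was above it for 25 of the 33 genes, against 50.0% of all, with a median excess of 0.22. The neuron markers moved in the same direction, with a median log2 ratio of 0.37 (4 of 4 higher in replicate 2), and the radial glia markers had -0.18 (1 of 4 higher). Markers of some other cells did so too, with 0.59 for red blood cells, 0.40 for smooth muscle and pericytes and 0.37 for microglia (4 of 4 detected genes higher in each). The endothelium markers had 0.09 (3 of 4 higher), below the median of 0.16 over all protein-coding genes. The marker medians were not set against a length group. The part of length and of cell types in the result was not tested. On TMM-scaled counts the median over all protein-coding genes was -0.02 and over the 33 genes 0.28, with 27 of the 33 above the median of all.

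**Figure D4:**
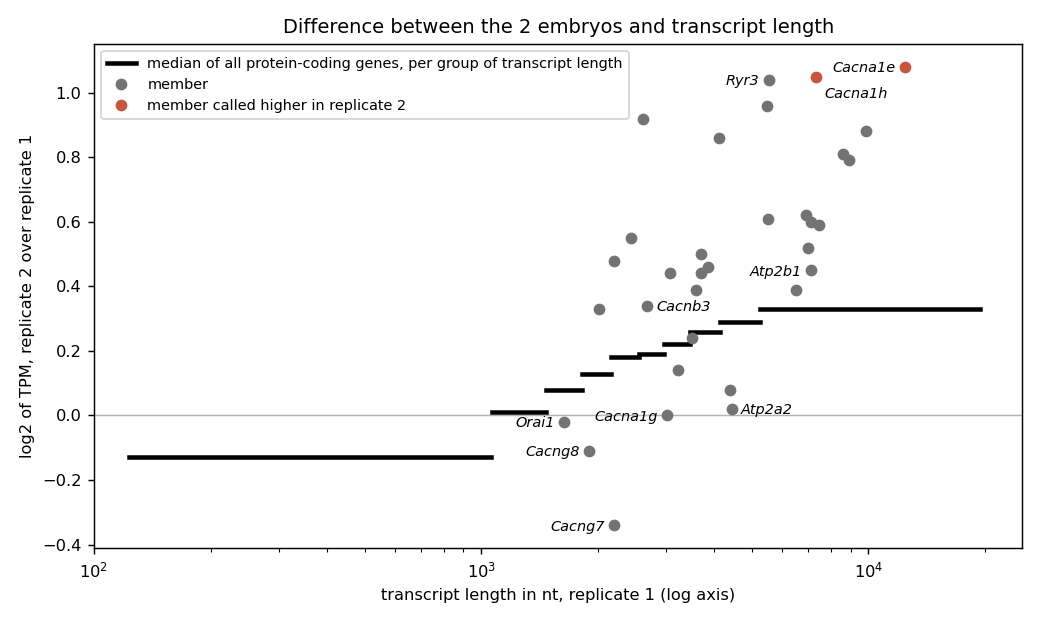
Log2 of TPM in replicate 2 over replicate 1 against transcript length (log axis) for the 33 genes with a mean of 1 TPM or more (points), with the median of all protein-coding genes in each of 10 groups of transcript length as black bars. The bars climb from -0.13 to 0.33, 25 points lie above the bar of their group, and the called genes Cacna1e and Cacna1h stand highest at 1.08 and 1.05.

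Start regions could be read for 33 of the 43 genes from RefSeq (GRCm38.p6), as windows of 300 bases from 250 before the start to 50 after it. For 4 genes the RefSeq start lay far from that of the GENCODE transcript it was paired with. The distance was 64445 bases for Cacna1s, 49899 for Cacnb2, 3359 for Cacng8 and 1252 for Cacng3. Other transcripts of a gene may start nearer. The Cacna1s window (chr1:136052561-136052860, plus strand) contains the GENCODE start of the gene, 136052750. The windows are described by CG dinucleotides, the sites of CpG methylation. The median was 18 CG over 1 window for each matched gene and 14 over the 19931 windows of protein-coding genes. Some matched genes had 2 or 3 windows, of which 1 was taken, so the sets may not be alike. The median was 35.0 CG for the 10 genes with a mean of 10 TPM or more and 13.5 for the 8 under 1 TPM. At least 15 CG stood in 7 of the 10 windows of genes with a mean of 10 TPM or more and in 4 of the 8 of genes under 1 TPM, against 48.7% of protein-coding windows. The motif TATAAA, searched on both strands, was in none of these windows and in 12.0% of those of protein-coding genes. A pair of windows is shown because they run against the count of CG, which is in capitals. Cacnb3, the highest gene, has 7 CG in 1 of its 2 windows (chr15:98632078-98632377, plus strand), 48 bases from the start of Cacnb3-202. The count of CG in its other window is not given here. Itpr3, at a mean of 0.590 TPM, has 30 CG (chr17:27057054-27057353, plus strand).
Cacnb3: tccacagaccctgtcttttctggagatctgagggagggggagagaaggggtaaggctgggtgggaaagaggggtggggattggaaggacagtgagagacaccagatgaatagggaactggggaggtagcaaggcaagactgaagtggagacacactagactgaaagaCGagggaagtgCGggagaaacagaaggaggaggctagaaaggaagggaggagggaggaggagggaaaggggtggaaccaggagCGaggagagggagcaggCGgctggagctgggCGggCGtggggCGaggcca
Itpr3: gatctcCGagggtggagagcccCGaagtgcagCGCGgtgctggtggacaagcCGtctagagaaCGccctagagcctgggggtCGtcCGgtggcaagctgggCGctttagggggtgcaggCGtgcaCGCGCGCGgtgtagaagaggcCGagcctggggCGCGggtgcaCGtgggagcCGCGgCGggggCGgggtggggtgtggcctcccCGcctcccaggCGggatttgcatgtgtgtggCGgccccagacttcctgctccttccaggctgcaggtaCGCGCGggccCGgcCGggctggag
These 2 genes were picked as exceptions. No methylation or binding was measured here.

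Other genes of calcium handling, in 7 lists, are given for their level beside the channels, and none of their members was called different between the embryos. Of 14 partners of voltage-gated channels, 10 stood at 1 TPM or more in both libraries. Calm2 and Calm3, which code for calmodulin, the calcium sensor bound to many channels, stood at 1721 ± 72.6 and 384 ± 20.2 TPM (SD, n = 2). Of 19 partners of the release channels and of the endoplasmic reticulum, 13 did. Fkbp1a, whose product binds ryanodine receptors, stood at 522 ± 11.1 TPM and the calcium-binding chaperones Calr and Canx at 469 ± 64.2 and 169 ± 15 TPM. Trdn, the triadin of the muscle release complex, had 1 count in each library.

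The Golgi pump Atp2c1 stood above all 6 pump genes described so far, at 73.4 ± 13.1 TPM. Of the 11 other pumps and exchangers, 6 reached 1 TPM in both libraries, with the sodium-calcium exchanger Slc8a1 at 7.88 ± 3.53 and the potassium-dependent exchanger Slc24a3 at 3.51 ± 1.27 TPM next. Bsg and Nptn, whose products are subunits of plasma membrane calcium pumps, stood at 637 ± 48.9 and 128 ± 10.8 TPM, above every Atp2b gene. Of 9 genes of mitochondrial calcium transport, 8 reached 1 TPM in both libraries, with the uniporter subunit gene Smdt1 at 261 ± 13.7 and the gatekeeper Micu2 at 39.6 ± 0.665 TPM.

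The TRPC channels, another route of calcium entry, were low: 4 of 7 reached 1 TPM in both libraries, with Trpc4 at 5.46 ± 1.77 and Trpc1 at 3.79 ± 0.148 TPM. Trpc2, a pseudogene in humans and a channel of the mouse vomeronasal organ, had 0 counts in both. Of 4 cytosolic calcium buffers, Calb2 (calretinin) and Calb1 (calbindin) stood at 92.4 ± 21.6 and 21.8 ± 2.75 TPM, and Pvalb (parvalbumin) at 0.640 ± 0.693 TPM.

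Markers of other cell types were detected as well. The endothelium list had 4 of 4 genes detected (113 and 122 TPM in sum), the smooth muscle and pericyte list 4 of 5 (21.3 and 28.7 TPM), the microglia list 4 of 4 (38.9 and 48.8 TPM) and the red blood cell list 4 of 4 (4298 and 5523 TPM). Their part in the level of the channels and pumps was not tested.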

How the data were processed

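Total RNA of 2 forebrains was measured by RNA-seq. The labels' protocols name extraction with Ambion mirVana, spike-ins and a Smart-seq document. Per the file headers, the deposited values are expected counts (estimated reads per gene or transcript, not normalized), TPM and FPKM, and, for each transcript, its percent of the gene TPM. The authors also deposited posterior mean TPM and an interval per gene TPM, whose level is not stated and which is centred on the posterior mean. TPM lay outside it for 4 of the 43 genes in replicate 1 and 5 in replicate 2. Reads were assigned to mm10 with GENCODE M4, per the files' notes. The aligner, counting program and strand setting are not given in the sources used here.

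Gene names, types and positions came from GENCODE M21 (GRCm38), matched by ID without version for 42462 of 43346 Ensembl genes. Depth was 35310017 and 29250404 expected counts. A gene was detected at 1 TPM or more in both libraries. A gene differed between the embryos at a mean of 5 TPM or more, 2-fold or more and intervals apart. Pairs within a family were called where each library had its intervals apart, with the same gene higher, with no pseudocount and a gene under 3 counts set to the level of 3. No test was possible with 1 group of 2. Alternatives used counts rounded to whole numbers and scaled with edgeR 4.0.16 (TMM) and DESeq2 1.42.0 (size factors) in R 4.3.3. Other work used Python 3.11.15, pandas 2.3.3 and numpy 2.4.6. The code of the call was run on simulated data with known changes. The simulation held counting noise only, with intervals from the counts instead of the deposited ones. It cannot show how the call behaves with spread between embryos, errors in assigning reads to transcripts or the trend with length. Every member is named, 16 pairs are given singly, and from each of the 7 lists the 3 genes with the highest mean TPM and those under 3 counts in both libraries. Some genes of the lists are not reported here, but counts over a list include them. Pvalb, Xist and the genes on opposite strands were named besides. The members and lists were chosen with earlier results of these data known. Means ± SD are over 2 libraries.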

Additional observations from a re-analysis of the deposited data

How the results depend on the processing

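The number of genes at 1 TPM or more in both libraries, 33, fell to 15 at a limit of 5 TPM. It lay between 29 and 35 with a limit of 0.5 TPM, FPKM, posterior mean TPM or protein-coding transcripts only. Of the 2 differences between the embryos, 0 were left with TMM, with DESeq2 size factors and with protein-coding transcripts only, and a 1.5-fold limit gave 4 (Atp2b2 and Cacna2d1 besides). With a mean of 1 TPM or with no filter there were 3, Ryr3 besides. Over all protein-coding genes the calls numbered 32 as reported, 24 with TMM and with DESeq2 size factors, 41 with protein-coding transcripts, 551 at 1.5-fold, 118 at a mean of 1 TPM and 216 with no filter. The sum of the 43 genes was 376 TPM, 456 when rescaled over nuclear protein-coding genes, and 325 to 427 TPM without either replicate. Of the 16 pairs given singly, the ratio of Stim2 to Stim1 was reversed, at -1.79, with protein-coding transcripts only. Counts not divided by length moved 13 of the 16 ratios by more than the SD and reversed 0. Pairs apart numbered 79, and 83 to 86 in a single library. Of the 33 genes, 27 were higher in replicate 2 on TMM or DESeq2 scaling, where 47.4% and 46.4% of all protein-coding genes were, 28 with rescaled TPM and 30 with protein-coding transcripts only (scalings chosen after seeing the data). No paired analysis was possible because the 2 replicates form 1 group. With 2 embryos, a difference between them cannot be assigned to anything the labels record. Counting noise limits Cacna1f, Cacna1s, Cacng1 and Cacng6, which had 3 counts or fewer in at least 1 library.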
